A study of Capra hircus with 20 samples.

Results

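The genes described here are 9 genes of the Notch pathway: the receptors NOTCH1, NOTCH2 and NOTCH3, the ligands JAG1, JAG2 and DLL1, and the target genes HES1, HEY1 and HEYL. They were picked by gene symbol from the deposited mRNA table, and the values of all transcripts of a symbol were added. All 9 symbols, of the 20587 in the table, were found, with 13 transcripts in all. NOTCH3 and HEY1 had 2 transcripts each, HEYL had 3, and each of the other 6 genes had 1.

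The libraries came from primary cells of 7-day-old male Jianzhou Daer goats (Capra hircus), which the study isolated with collagenase from the longissimus dorsi muscle or from subcutaneous fat and used at passage 3. Intramuscular preadipocytes (IMPA) and subcutaneous preadipocytes (SPA) were collected at day 0, before induction. Intramuscular adipocytes (IMA) and subcutaneous adipocytes (SA) were the same kinds of cells after 3 days in medium with oleic acid, and each of the 4 groups held 5 libraries. No group carried a genetic change, and the names of the groups are those of the labels. The labels do not tie a library to a goat, so the p values below measure the spread between these libraries, which may in part be technical.

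Notch signalling passes between cells that touch each other. A ligand of the Jagged or Delta-like family on a cell binds a Notch receptor on its neighbour, the receptor is cut within the membrane, and its inner part enters the nucleus, where it joins the DNA-binding protein RBPJ and switches on genes such as those of the HES and HEY families, which encode transcriptional repressors. The pathway is known for holding muscle satellite cells and other progenitors in an undifferentiated state, and it has also been studied in fat cell formation.

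Levels are given in FPKM, fragments scaled by transcript length and by the mapped fragments of the library, so that levels of different genes can be compared. The files hold FPKM without counts, and how many fragments stand behind a value is unknown. Summed over the mRNA table, the libraries reached 373889 to 413880 FPKM, and between 15126 and 16961 symbols were above 0 in a library. The cells were checked against marker lists. Of 12 myogenic markers, 10 were in the table, and their summed level was 2634 to 3038 FPKM in IMPA and 9140 to 9812 in IMA, against 6.55 to 19.6 in SPA and 7.27 to 8.94 in SA. In the subcutaneous groups, MYOD1 was listed at 0 in 5 of 5 SPA and 4 of 5 SA libraries and MYOG in 4 of 5 of each. Adipocyte markers were low in all groups, with a sum over 9 genes of 10.7 to 13.5 FPKM, and the mean of ADIPOQ, the gene of adiponectin, was 0.20 FPKM in IMPA, 0.21 in IMA, 0.42 in SPA and 0.35 in SA. Within that sum CD36, a fatty acid transporter, rose on induction from a mean of 0.252 to 4.92 FPKM in the intramuscular cells (limma adjusted p = 2.85e-10). In the subcutaneous cells CD36 rose from 0.0679 to 0.934 FPKM (adjusted p = 2.62e-05). CD36 reached the mean of 1 FPKM over the 20 libraries that these tests required only through IMA. CEBPA, an adipogenic transcription factor, fell from 9.23 to 5.42 FPKM in the intramuscular cells (adjusted p = 4.28e-06). In the subcutaneous cells CEBPA fell from 5.05 to 3.91 FPKM (adjusted p = 0.00794). The intramuscular libraries therefore held the RNA of muscle-lineage genes that their label does not name. In the day 3 libraries ADIPOQ and PLIN1 stayed under 1 FPKM. Mean LPL was 0.549 FPKM in SPA and 1.34 in SA, and mean PPARG was 0.624 and 1.03. In IMPA and IMA, LPL was 1.02 and 0.941 FPKM, and PPARG was 0.475 and 0.364. CIDEC was 4.65 FPKM in SPA and 4.35 in SA. Of the 9 adipocyte markers, 2 had a mean of at least 1 FPKM in IMPA, in IMA and in SPA, and 4 in SA. Stromal and preadipocyte markers, 9 in the table, summed to 4430 to 6966 FPKM in IMPA, 5910 to 6643 in IMA, 11160 to 11550 in SPA and 10210 to 10510 in SA, and DLK1 and CD34 were under 1 FPKM in every group. Of 10 endothelial markers, 9 had means under 1 FPKM in every group, while ERG was between 1.24 and 4.95 FPKM, and 10 pericyte and smooth muscle markers summed to 812 to 1009 FPKM in IMPA, 696 to 874 in IMA, 295 to 319 in SPA and 323 to 360 in SA. Most of that sum was ACTA2 and TAGLN, whereas PDGFRB (20.2 FPKM in IMPA and 42.7 in SPA) and CSPG4 (1.68 and 4.46) were higher in SPA. RGS5, a defining pericyte marker, and MYH11, of smooth muscle, had means under 0.1 FPKM in every group. In bulk samples such as these, fewer cells of a type and less RNA per cell cannot be told apart.

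Among the receptors, NOTCH2 was the most abundant in every library, NOTCH1 fell on induction in the intramuscular cells, and NOTCH3 fell on induction in both. Taken as a share of the FPKM of the 3 receptors, NOTCH2 held 68.2% ± 4.05 (SD, n = 5) in IMPA, 69.5% ± 1.26 in IMA, 70.6% ± 0.671 in SPA and 66.7% ± 2.06 in SA. NOTCH3 held 12.6% ± 2.18, 9.97% ± 0.962, 6.07% ± 0.198 and 3.55% ± 0.325 in the same order. The receptors together reached 24.02 FPKM ± 3.78 in IMPA, 14.6 ± 0.993 in IMA, 25.2 ± 2.25 in SPA and 22.5 ± 3.29 in SA. The makeup of the receptor pool thus stayed dominated by the same gene, and its total was lowest in IMA.

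NOTCH1 encodes the receptor best known from blood and progenitor cells. Its level was 4.03, 4.63, 4.38, 4.97 and 4.76 FPKM in IMPA libraries 1 to 5 and 2.89, 3.28, 2.79, 2.98 and 3.02 FPKM in IMA. It was 5.49, 5.52, 6.18, 6.51 and 5.66 FPKM in SPA and 7.45, 6.79, 5.72, 6.31 and 6.91 FPKM in SA. Every IMPA library was above every IMA library, every subcutaneous library was above every intramuscular library, and the SPA and SA ranges overlapped. On the scale of log2(FPKM + 1), which understates the change of low genes, NOTCH1 was lower in IMA than in IMPA by 0.48 (log2 fold change -0.48, SE 0.057, limma adjusted p = 2.26e-05), while SA minus SPA was 0.15 (95% interval 0.003 to 0.298, adjusted p = 0.0816). That subcutaneous value passed the threshold of 0.05 without SPA4 (adjusted p = 0.0488) or without SA3 (adjusted p = 0.0219).

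NOTCH2, a broadly expressed receptor, was 14.5, 16.8, 14.5, 22.7 and 14.0 FPKM in IMPA and 8.81, 10.7, 10.7, 10.6 and 10.0 FPKM in IMA. In SPA it was 16.0, 17.3, 18.2, 20.5 and 17.1 FPKM, and in SA it was 17.1, 15.1, 10.9, 15.1 and 17.2 FPKM. IMA stood below the other groups without overlap, and the other 3 groups overlapped each other. IMA was lower than IMPA by 0.63 (log2 fold change -0.63, SE 0.113, adjusted p = 0.000484), and SA minus SPA was -0.24 (95% interval -0.473 to -0.008, adjusted p = 0.0768). The subcutaneous value passed the threshold without SA1 (adjusted p = 0.0488) or without SA5 (adjusted p = 0.0468), and it shrank to -0.14 (adjusted p = 0.125) without SA3.

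NOTCH3, the receptor known from the mural cells of vessels, had the lowest level of the 3 receptors. It was 2.84, 2.83, 3.10, 2.84 and 3.24 FPKM in IMPA and 1.24, 1.49, 1.72, 1.31 and 1.54 FPKM in IMA. In SPA it was 1.47, 1.48, 1.55, 1.74 and 1.41 FPKM, and in SA it was 0.995, 0.846, 0.542, 0.827 and 0.809 FPKM. IMPA was highest and SA lowest without overlap, and the ranges of IMA and SPA overlapped. The change on induction was -0.69 in the intramuscular cells (SE 0.062, adjusted p = 2.43e-06) and -0.49 in the subcutaneous cells (SE 0.065, adjusted p = 4.79e-05), which correspond to 2.03-fold and 1.90-fold lower mean FPKM.

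**Figure D1:**
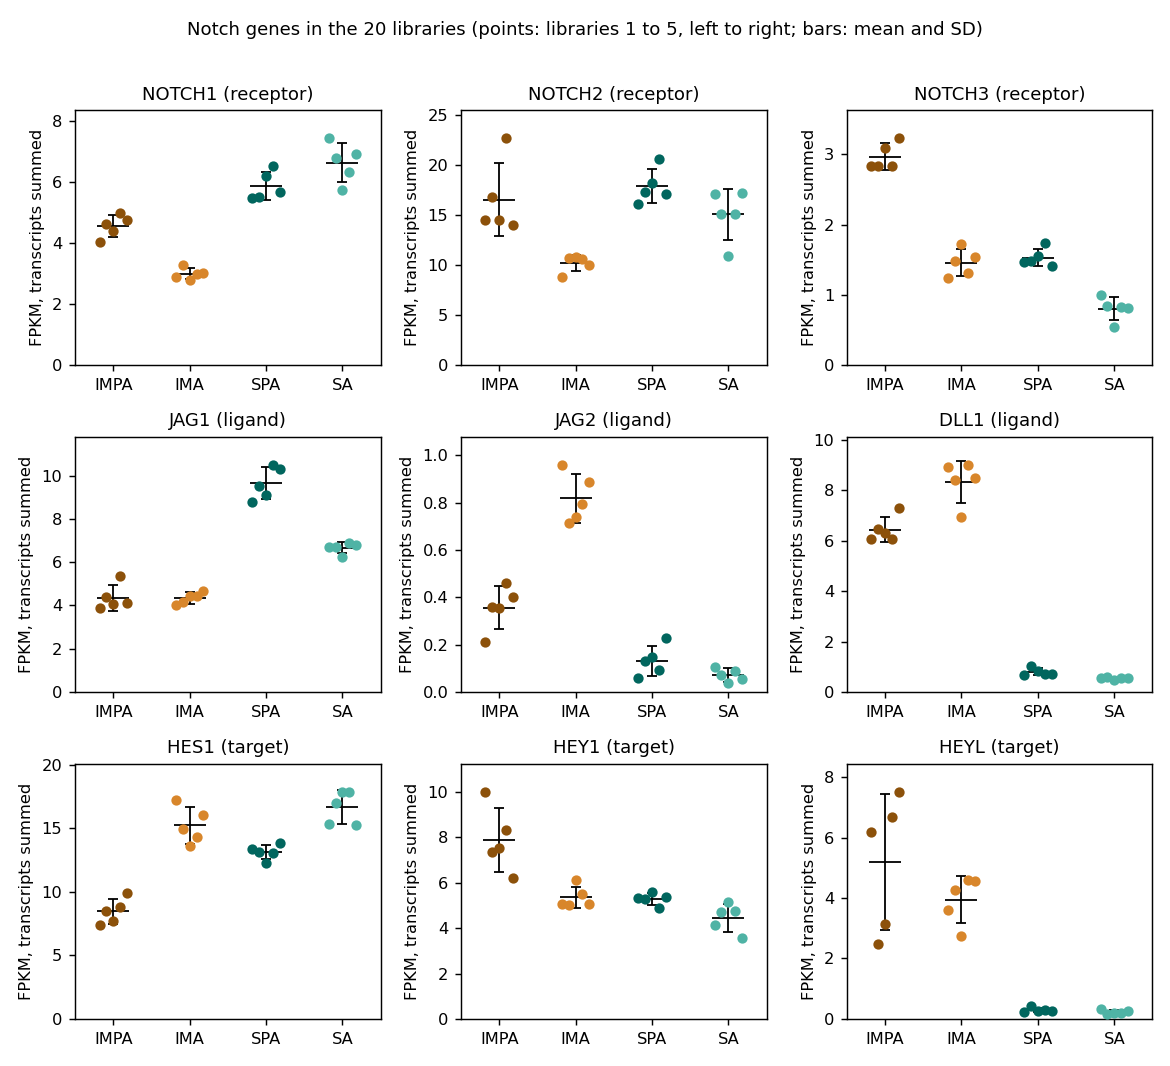
FPKM of the 9 Notch genes, transcripts summed, with 1 panel per gene and 1 point per library in IMPA, IMA, SPA and SA, and bars for the mean and SD of 5 libraries. DLL1 and HEYL sit under 1.1 FPKM in every subcutaneous library, JAG1 is highest in SPA, and NOTCH2 shows the single high library IMPA4 at 22.7 FPKM.

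The makeup of the ligands differed between the depots. Of the FPKM of the 3 ligands, DLL1 held 57.8% ± 4.13 (SD, n = 5) in IMPA and 61.7% ± 2.84 in IMA, but 7.62% ± 1.43 in SPA and 7.54% ± 0.403 in SA. JAG1 held 39.0% ± 3.82 in IMPA and 32.3% ± 2.89 in IMA, against 91.2% ± 1.52 in SPA and 91.5% ± 0.645 in SA. The ligands together reached 11.2 FPKM ± 0.736 in IMPA, 13.5 ± 0.869 in IMA, 10.6 ± 0.767 in SPA and 7.29 ± 0.302 in SA. The ligand pool was thus mainly DLL1 in the intramuscular cells and mainly JAG1 in the subcutaneous cells, at both stages.

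JAG1, a Jagged ligand that activates Notch in neighbouring cells, was 3.88, 4.39, 4.04, 5.37 and 4.10 FPKM in IMPA and 4.01, 4.16, 4.43, 4.45 and 4.66 FPKM in IMA. It was 8.77, 9.54, 9.11, 10.5 and 10.3 FPKM in SPA and 6.71, 6.69, 6.25, 6.90 and 6.79 FPKM in SA. SPA was above SA, and SA above both intramuscular groups, without overlap. On induction JAG1 fell in the subcutaneous cells (log2 fold change -0.47, SE 0.053, adjusted p = 1.36e-05), where mean FPKM was 1.45-fold lower in SA. No change was detected in the intramuscular cells, where the log2 difference was 0.002 with a 95% interval of -0.155 to 0.159 (adjusted p = 0.986).

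DLL1, a Delta-like ligand known from segmentation of the embryo and from satellite cells, was 6.06, 6.48, 6.31, 6.06 and 7.29 FPKM in IMPA and 8.91, 8.39, 6.93, 9.02 and 8.47 FPKM in IMA. In SPA it was 0.691, 1.04, 0.838, 0.716 and 0.725 FPKM, and in SA it was 0.562, 0.600, 0.477, 0.560 and 0.550 FPKM. All intramuscular libraries were above all subcutaneous ones, and SPA was above SA without overlap, whereas IMA3, the lowest IMA library, lay within the IMPA range. DLL1 rose on induction in the intramuscular cells (log2 fold change 0.33, SE 0.070, adjusted p = 0.00169) and fell in the subcutaneous cells (-0.22, SE 0.053, adjusted p = 0.00504).

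JAG2, the second Jagged ligand, had a mean under 1 FPKM over the 20 libraries and was left out of the fit across genes, so it was compared by exact permutation of the libraries. It was 0.212, 0.357, 0.353, 0.459 and 0.399 FPKM in IMPA and 0.960, 0.713, 0.737, 0.793 and 0.886 FPKM in IMA. In SPA it was 0.060, 0.129, 0.149, 0.094 and 0.226 FPKM, and in SA it was 0.107, 0.071, 0.036, 0.090 and 0.055 FPKM. IMA was above all other groups without overlap, and neighbours among the rest overlapped. Mean FPKM was 2.30-fold higher in IMA than in IMPA (two-sided exact permutation test, p = 0.00794, adjusted p = 0.0159 over the 4 comparisons of JAG2), where 0.00794 is the smallest p that 5 libraries against 5 allow. SA minus SPA was -0.08 on the log2 scale (exact permutation p = 0.0794, adjusted p = 0.0794), and without SPA1 the exact permutation p was 0.0317.

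The target genes moved in different directions. HES1 rose on induction in both depots, HEY1 fell in both, and HEYL was at 2.46 to 7.53 FPKM in the intramuscular libraries and at 0.178 to 0.414 FPKM in the subcutaneous ones. Together the 3 targets reached 21.5 FPKM ± 2.94 (SD, n = 5) in IMPA, 24.5 ± 1.37 in IMA, 18.7 ± 0.561 in SPA and 21.4 ± 1.84 in SA. HES1 made up 39.7% ± 5.74 of this sum in IMPA, 62.0% ± 2.93 in IMA, 70.2% ± 1.57 in SPA and 78.1% ± 1.20 in SA.

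HES1, a repressor that is the classical Notch target, was 7.38, 8.50, 7.67, 8.83 and 9.87 FPKM in IMPA and 17.2, 14.9, 13.6, 14.3 and 16.1 FPKM in IMA. It was 13.4, 13.2, 12.2, 13.0 and 13.8 FPKM in SPA and 15.3, 17.0, 17.9, 17.9 and 15.3 FPKM in SA. IMPA was below the other groups without overlap, and SA was above SPA without overlap. The log2 fold change on induction was 0.78 in the intramuscular cells (SE 0.079, adjusted p = 6.33e-06) and 0.32 in the subcutaneous cells (SE 0.054, adjusted p = 0.000329), with mean FPKM 1.80-fold and 1.27-fold higher.

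HEY1, a related repressor, was 10.0, 7.37, 7.52, 8.34 and 6.20 FPKM in IMPA and 5.06, 5.04, 6.12, 5.50 and 5.09 FPKM in IMA. In SPA it was 5.32, 5.29, 5.59, 4.87 and 5.36 FPKM, and in SA it was 4.14, 4.72, 5.13, 4.77 and 3.55 FPKM. IMPA was above all other groups without overlap, and the other 3 groups overlapped along their order. HEY1 was lower in IMA than in IMPA (log2 fold change -0.47, SE 0.098, adjusted p = 0.00133). It was also lower in SA than in SPA (-0.21, SE 0.076, adjusted p = 0.036), but that call was lost when any of 6 of the 10 libraries was left out (SPA1, SPA2, SPA3, SPA5, SA1 or SA5, adjusted p between 0.0608 and 0.0798).

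HEYL, the third member of the HEY group, was 6.20, 2.46, 3.13, 6.68 and 7.53 FPKM in IMPA and 3.59, 4.27, 2.76, 4.58 and 4.56 FPKM in IMA. In SPA it was 0.232, 0.414, 0.269, 0.285 and 0.260 FPKM, and in SA it was 0.335, 0.178, 0.181, 0.209 and 0.248 FPKM. The IMPA libraries were spread over a wide range that took in all IMA libraries, and no intramuscular library came near the subcutaneous ones. The change on induction was -0.25 in the intramuscular cells (95% interval -0.764 to 0.262, adjusted p = 0.377) and -0.07 in the subcutaneous cells (95% interval -0.174 to 0.033, adjusted p = 0.231), so neither was detectable with this spread.

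**Figure D2:**
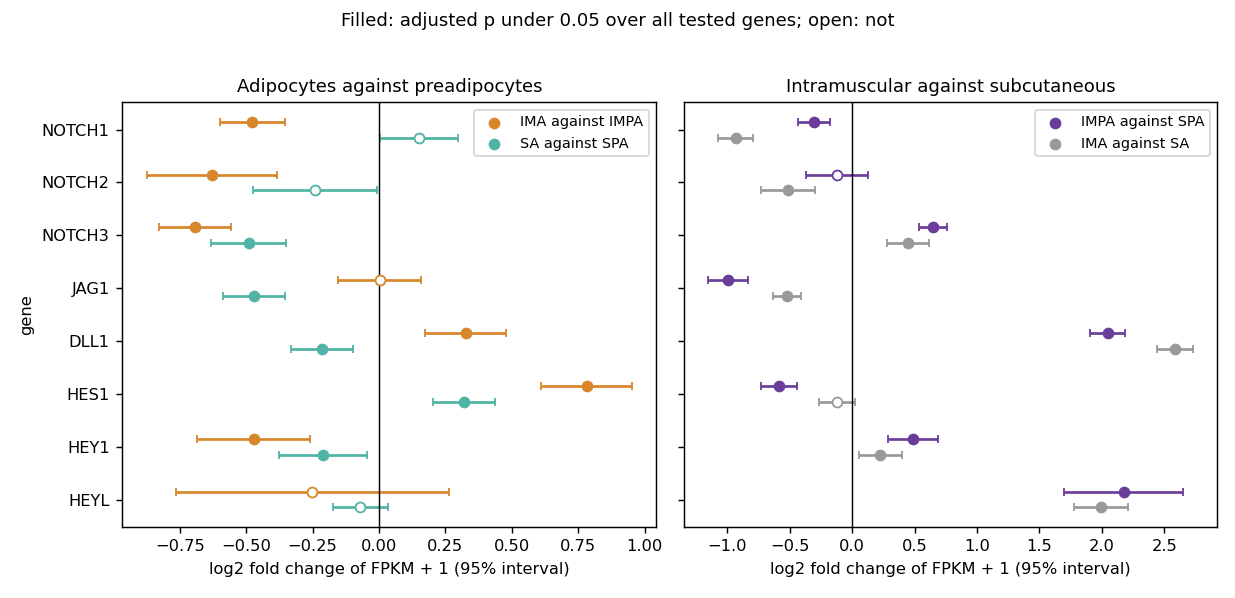
Difference of log2(FPKM + 1) for the 8 Notch genes in the fit, with 95% intervals, for adipocytes against preadipocytes at left and intramuscular against subcutaneous cells at right. Filled points passed an adjusted p of 0.05, open points did not. NOTCH1 lies below 0 in IMA against IMPA and above 0 in SA against SPA, and DLL1 and HEYL lie at about 2 or more in both comparisons of the depots.

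Which Notch genes changed over induction in the intramuscular cells was asked by comparing IMA with IMPA. HES1 and DLL1 rose, and NOTCH1, NOTCH2, NOTCH3 and HEY1 fell, which made 6 of the 8 tested Notch genes, 2 higher and 4 lower. Over all 11432 genes tested, 60.1% passed the threshold, 19.9% higher and 40.2% lower, so most genes of the table changed as well. The ranges of IMA and IMPA did not overlap for 5 of the 8, where 43.5% of all genes did not overlap. The median log2 fold change of the 8 Notch genes was -0.361, beside -0.085 for all genes. With upper-quartile scaling 48.4% of all calls were higher, against 33.1% with FPKM as deposited, and the 6 Notch genes kept their direction. Over the same comparison 8 of the 10 myogenic markers rose and 1 fell, and 6 of the 8 proliferation markers fell (summed level 135 to 161 FPKM in IMPA and 111 to 135 in IMA). Of 7 stromal markers 3 fell and none rose, and the part of these lists in these differences was not tested. The share of reads that mapped did not overlap between any of the groups compared here, so it cannot be told apart from them. With this share as a covariate 0 of the 8 Notch genes passed in IMA against IMPA, beside 776 of all 11432 genes. The 6 genes called without it kept their direction, with NOTCH1 at -0.71 (adjusted p = 0.052), NOTCH2 at -1.15 (adjusted p = 0.0973), NOTCH3 at -0.33 (adjusted p = 0.345), DLL1 at 0.18 (adjusted p = 0.731), HES1 at 0.60 (adjusted p = 0.23) and HEY1 at -0.37 (adjusted p = 0.587).

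The same question in the subcutaneous cells was answered by SA against SPA. HES1 rose, and NOTCH3, JAG1, DLL1 and HEY1 fell, which made 5 of 8, 1 higher and 4 lower. Over all genes 52.1% passed, 26.1% higher and 26.0% lower, and the share of calls that were higher moved from 50.1% to 36.5% when each library was rescaled to the same mRNA sum. The ranges did not overlap for 4 of the 8 (38.8% of all genes). The median was -0.212 for the Notch genes and -0.009 for all genes. All 8 proliferation markers rose (summed level 59.1 to 67.9 FPKM in SPA and 259 to 293 in SA), and 1 of the 10 myogenic markers fell while none rose. The marker that fell, MYF5, had means of 0.296 FPKM in SPA and 0.0108 in SA. Of the 10 myogenic markers, 2 had a mean of at least 1 FPKM in SPA and 1 in SA. Most therefore passed the filter on low values only through the intramuscular libraries. Of 7 stromal markers 5 fell and 1 rose, among them THY1 (-1.21, adjusted p = 2.39e-09) and PDGFRA (-0.81, adjusted p = 3.13e-09), and the part of these lists was not tested. With the mapped share as a covariate 2 of the 8 Notch genes passed, NOTCH3 (-0.51, adjusted p = 0.0186) and JAG1 (-0.64, adjusted p = 0.00064), beside 3809 of all 11432 genes.

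Whether the depots differed before induction was asked by comparing IMPA with SPA. DLL1 was higher in IMPA by 2.05 on the log2 scale (SE 0.065, adjusted p = 1.95e-11), with mean FPKM 8.02-fold higher, and HEYL by 2.18 (SE 0.219, adjusted p = 1.45e-06), with mean FPKM 17.8-fold higher. NOTCH3 (0.65, adjusted p = 1.52e-07) and HEY1 (0.49, adjusted p = 0.000366) were also higher in IMPA. JAG1 (-0.995, adjusted p = 8.24e-08), HES1 (-0.59, adjusted p = 4.31e-06) and NOTCH1 (-0.31, adjusted p = 0.000451) were lower, and mean FPKM of JAG1 was 2.21-fold lower. NOTCH2 differed by -0.12 (95% interval -0.371 to 0.126, adjusted p = 0.342), and without IMPA4 it was lower in IMPA (-0.24, adjusted p = 0.0102). JAG2 was 2.71-fold higher in mean FPKM (two-sided exact permutation test, p = 0.0159, adjusted p = 0.0212). Of the 8 Notch genes in the fit, 7 passed, 4 higher and 3 lower, beside 75.1% of all genes, 42.3% higher and 32.9% lower. All 7 had ranges that did not overlap (63.4% of all genes), and DLL1 and HEYL passed the filter on low values only through the intramuscular libraries. All 10 myogenic markers measured, most of them in the fit only through the intramuscular libraries, and all 8 proliferation markers were higher in IMPA. Of 7 stromal markers 5 were lower and none higher, with DCN at 661 FPKM in IMPA and 5441 in SPA, and the part of these lists in the differences was not tested. With the mapped share as a covariate 1 of 8 passed, DLL1 (1.88, adjusted p = 0.000858), beside 2418 of all 11432 genes.

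After induction, IMA was compared with SA. DLL1 was higher in IMA by 2.59 (SE 0.068, adjusted p = 1.31e-13), with mean FPKM 15.2-fold higher, and HEYL by 2.00 (SE 0.1, adjusted p = 2.63e-10), with mean FPKM 17.2-fold higher. NOTCH3 was higher by 0.45 (adjusted p = 0.000157), and HEY1 by 0.23 (adjusted p = 0.0223), a call that was lost without IMA3 (adjusted p = 0.0595), SA1 (adjusted p = 0.051) or SA5 (adjusted p = 0.0557). NOTCH1 (-0.93, adjusted p = 1.09e-08), JAG1 (-0.52, adjusted p = 4.82e-07) and NOTCH2 (-0.51, adjusted p = 0.000397) were lower in IMA, and mean FPKM of NOTCH1 was 2.22-fold lower. HES1 differed by -0.12 (95% interval -0.269 to 0.021, adjusted p = 0.114), and without IMA1 it passed (adjusted p = 0.0346). JAG2 was 11.4-fold higher in mean FPKM in IMA (two-sided exact permutation test, p = 0.00794, adjusted p = 0.0159). Of 8 genes 7 passed, 4 higher and 3 lower, beside 72.4% of all genes, 29.0% higher and 43.4% lower, and the ranges did not overlap for 6 of the 8 (58.6% of all genes). All 10 myogenic markers measured were again higher in IMA, the 8 proliferation markers were lower, and of 7 stromal markers 6 were lower and none higher, with DCN at 535 FPKM in IMA and 4120 in SA. The part of these lists was not tested. DLL1 and HEYL stand in these counts through their intramuscular levels, as at day 0, and their depot calls were kept with no filter on low values. With the mapped share as a covariate 5 of 8 passed, namely NOTCH1, NOTCH2, JAG1, DLL1 and HEYL, beside 6176 of all 11432 genes.

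Whether induction acted differently in the depots was tested by the interaction, the change in intramuscular cells minus the change in subcutaneous cells on the log2 scale, over all 20 libraries. On the log2(FPKM + 1) scale, which understates low genes such as subcutaneous DLL1, NOTCH1 had the largest value in size of the 8 genes. It was -0.63 (SE 0.088, adjusted p = 3.62e-06), since NOTCH1 fell in the intramuscular cells and had a positive difference in the subcutaneous ones. Ratios of mean FPKM, induced over day 0, were 0.656 in intramuscular and 1.13 in subcutaneous cells for NOTCH1. For DLL1 they were 1.295 and 0.685, so this order depends on the scale. DLL1 (0.54, SE 0.093, adjusted p = 4.79e-05), JAG1 (0.47, SE 0.090, adjusted p = 0.000145) and HES1 (0.46, SE 0.098, adjusted p = 0.000453) had positive values in the interaction. DLL1 moved in opposite directions in the depots, JAG1 fell only in the subcutaneous comparison, and HES1 rose more in the intramuscular cells. NOTCH2 had a value of -0.39 (SE 0.164, adjusted p = 0.0497), which was lost without any of 15 of the 20 libraries (adjusted p between 0.051 and 0.0955) and under 10 other alternatives. NOTCH3 (-0.20, 95% interval -0.395 to -0.006, adjusted p = 0.0742), HEY1 (-0.26, 95% interval -0.528 to 0.005, adjusted p = 0.0888) and HEYL (-0.18, 95% interval -0.716 to 0.356, adjusted p = 0.574) did not pass. NOTCH3 passed without IMA3 (adjusted p = 0.0327), SPA4 (adjusted p = 0.0484) or SA3 (adjusted p = 0.0137), and HEY1 without IMPA5 (adjusted p = 0.0204) or SA5 (adjusted p = 0.0285). Of 8 genes 5 passed, 3 with positive and 2 with negative values, beside 55.3% of all genes, 20.7% positive and 34.6% negative. With upper-quartile scaling 49.2% of all calls were positive, against 37.5% as deposited. JAG2 was not tested for this difference. In the same interaction all 8 proliferation markers had negative values (median -2.06), 7 of 10 myogenic markers had positive and 1 negative values (median 1.76), and 3 of 7 stromal markers had positive values, and their part was not tested. With the mapped share as a covariate 1 of 8 passed, NOTCH1 (-0.80, adjusted p = 0.00421), beside 2122 of all 11432 genes.

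The transcripts of NOTCH3 changed places between the subcutaneous groups. XM_018051292.1 made up 97.1% to 99.3% of NOTCH3 FPKM in the SPA libraries and 0 to 5.18% in the SA libraries, where XM_018051293.1 made up the rest. The mean share of XM_018051292.1 was 98.3% ± 0.800 (SD, n = 5) in SPA and 3.86% ± 2.19 in SA (two-sided exact permutation test, p = 0.00794, adjusted p = 0.0476 over 12 tests of shares in NOTCH3, HEY1 and HEYL, which were chosen after the values were seen). Intramuscular libraries were mixed. The share was 99.1%, 70.2%, 74.7%, 66.2% and 84.6% in IMPA libraries 1 to 5 and 98.8%, 1.26%, 98.7%, 4.51% and 97.9% in IMA, so IMA2 and IMA4 carried almost wholly the other transcript while the summed level of NOTCH3 differed little among the IMA libraries. How StringTie divides fragments between transcripts that share most of their exons cannot be checked without reads, and only the sum was used in the comparisons above. With the most abundant transcript alone, NOTCH3 fell from SPA to SA by 1.28 on the log2 scale (log2 fold change -1.276, adjusted p = 8.22e-09).

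**Figure D3:**
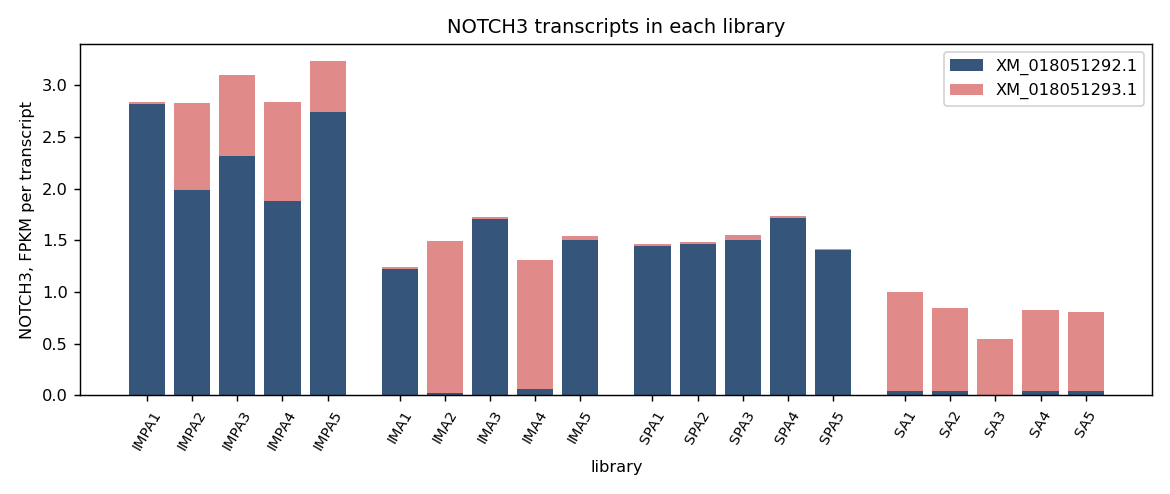
FPKM of the 2 NOTCH3 transcripts in each of the 20 libraries, stacked so that the height is the summed level. XM_018051292.1 fills nearly the whole bar in all 5 SPA libraries and at most 5.18% of it in the SA libraries, while IMA2 and IMA4 differ from the other 3 IMA libraries.

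HEYL differed in level between the depots at both stages, and in the shares of its transcripts at day 0. XM_018042166.1 made up 68.8% ± 10.3 (SD, n = 5) of HEYL FPKM in IMPA and 76.3% ± 19.3 in IMA, and 11.0% ± 24.5 in SPA and 20% ± 44.7 in SA, where a single library of each group carried it (SPA2 with 54.82% and SA1 with 100%). The share differed between IMPA and SPA (two-sided exact permutation test, p = 0.00794, adjusted p = 0.0476), but the subcutaneous values rest on sums under 0.5 FPKM. XM_018042164.1 held all of HEYL in 4 of 5 SPA and 4 of 5 SA libraries, at 0.178 to 0.285 FPKM, and was at 0.091 to 0.676 FPKM in the intramuscular libraries. As the fragments were assigned, this transcript was low in all 4 groups, and the other transcripts carried the difference in level between the depots. As for NOTCH3, that assignment cannot be checked without reads. HEY1 was nearly all XM_005689120.3, with mean shares of 94.0% to 98.9%, and no test of its shares passed (adjusted p between 0.114 and 0.762 over the exact permutation tests).

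The rest of the pathway was described from a list of 59 genes, of which 58 were in the table and 42 were in the fit. In IMA against IMPA 32 of 42 passed, 6 higher and 26 lower, with a median of -0.159, beside 60.1% of all genes. In SA against SPA 18 passed, 4 higher and 14 lower, with a median of -0.09, beside 52.1% of all genes. In that comparison 9 passed when the most abundant transcript of each gene was used alone, beside 4237 of all 11080 genes tested in that way. With the mapped share as a covariate 4 and 10 passed, beside 776 and 3809 of all 11432 genes. The lists below are given by their counts beside the percentages for all genes above.

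The glycosyltransferases add sugars to the receptors and alter which ligands they answer. Of 4 tested, 3 fell in IMA against IMPA and none rose, and in SA against SPA 1 rose. LFNG, a Fringe enzyme that favours Delta-like over Jagged signals, was 26.6 FPKM ± 4.21 in IMPA, 16.9 ± 1.01 in IMA, 17.0 ± 0.398 in SPA and 19.2 ± 1.15 in SA (SD, n = 5). It fell in the intramuscular cells (-0.62, adjusted p = 9.22e-05) and rose in the subcutaneous cells (0.16, adjusted p = 0.00701), and the interaction was -0.78 (adjusted p = 1.46e-06). LFNG was thus highest in IMPA, and the means of the other groups lay between 16.9 and 19.2 FPKM.

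Ligand ubiquitin ligases prompt the uptake of the ligand by the signal-sending cell. All 3 tested changed in IMA against IMPA, 1 rising and 2 falling, and 1 rose in SA against SPA. NEURL1 was 0.975 FPKM ± 0.110 in IMPA, 3.69 ± 0.368 in IMA, 0.0789 ± 0.0451 in SPA and 0.107 ± 0.0367 in SA. It rose in the intramuscular cells (1.25, adjusted p = 2.42e-08) and was higher in IMA than in SA (2.08, adjusted p = 1.25e-12), with an interaction of 1.21 (adjusted p = 6.24e-11). NEURL1 passed the filter on low values only through IMA. MIB1, the other ligase of this kind with a broad role, was 52.4 FPKM in IMPA, 47.5 in IMA, 33.2 in SPA and 41.7 in SA. It rose in SA against SPA (0.32, adjusted p = 8.88e-06) and had an interaction of -0.46 (adjusted p = 3.21e-07).

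The proteases that cut the receptor, ADAM10, ADAM17 and the subunits of gamma-secretase, were measured for all 8 genes. In IMA against IMPA 5 fell and 1 rose, and in SA against SPA none of 8 passed. ADAM10 was 44.4 FPKM in IMPA and 35.9 in IMA (-0.30, adjusted p = 7.17e-06), and PSEN2, a catalytic subunit, was 6.55 and 4.33 FPKM (-0.50, adjusted p = 4.56e-05). PSENEN, another subunit, was lower in IMPA than in SPA (-0.50, adjusted p = 4.83e-07). Genes for turnover of the receptor numbered 8, with 2 higher and 3 lower in IMA against IMPA and 1 higher and 2 lower in SA against SPA. DTX3L, of the Deltex ubiquitin ligases, fell from 12.6 FPKM in SPA to 7.57 in SA (-0.67, adjusted p = 6.83e-07), and DTX4 was higher in IMPA than in SPA (1.34, adjusted p = 6.03e-11). Mean DTX4 was 2.30 FPKM in IMPA, 5.57 in IMA, 0.3035 in SPA and 0.456 in SA. DTX4 thus passed the filter on low values only through the intramuscular libraries. NUMB, an inhibitor that lowers Notch at the membrane, was lower in IMA than in SA (-0.65, adjusted p = 1.03e-07), and so was ITCH, another ubiquitin ligase (-0.30, adjusted p = 9.97e-06).

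Nuclear partners of the cut receptor mostly fell. Of 8 activators 7 fell in IMA against IMPA and 5 in SA against SPA, and none rose in either, where 40.2% and 26.0% of all genes were lower. RBPJ, the DNA-binding partner, was 19.7 FPKM ± 0.896 in IMPA, 20.03 ± 0.624 in IMA, 31.0 ± 1.05 in SPA and 23.6 ± 1.11 in SA. It fell in the subcutaneous cells (-0.38, adjusted p = 5.33e-06), while the intramuscular difference was 0.02 (adjusted p = 0.657) and the interaction 0.40 (adjusted p = 2.75e-06). RBPJ was the activator that did not pass in the intramuscular cells, and it was lower in IMPA than in SPA (-0.63, adjusted p = 1.38e-08). Of 10 co-repressors, 1 rose and 6 fell in IMA against IMPA, and 1 rose and 7 fell in SA against SPA. HDAC2, a histone deacetylase, rose from 49.0 to 62.6 FPKM in SA against SPA (0.35, adjusted p = 1.61e-06), with an interaction of -0.50 (adjusted p = 2.05e-08).

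**Figure D4:**
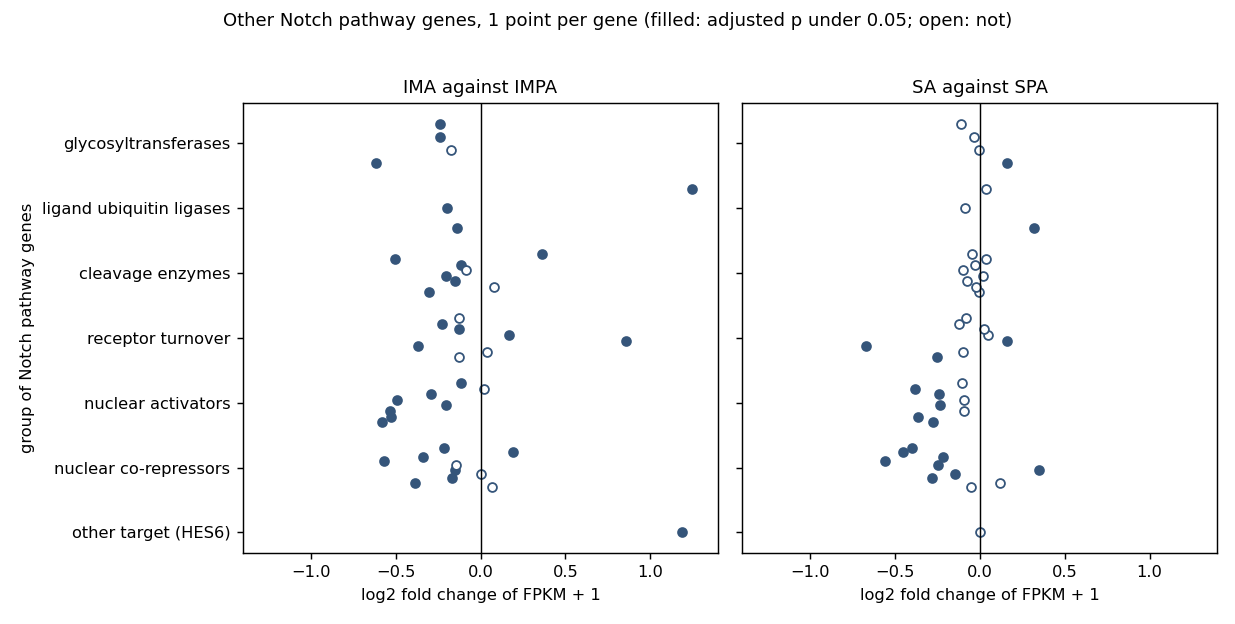
Difference of log2(FPKM + 1) of the 42 other Notch pathway genes in the fit, 1 point per gene and 1 row per group of genes, for IMA against IMPA and SA against SPA. Filled points passed an adjusted p of 0.05. Activators lie at or below 0 in both comparisons except RBPJ at 0.02 in the intramuscular cells, and the cleavage enzymes lie close to 0 in the subcutaneous cells.

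Between the depots 36 of the 42 genes passed in IMPA against SPA, 17 higher and 19 lower, beside 75.1% of all genes. In IMA against SA 31 passed, 12 higher and 19 lower, beside 72.4% of all genes. The interaction passed for 19, 8 positive and 11 negative, beside 55.3% of all genes. With the most abundant transcript alone it passed for 11, beside 4785 of all 11080 genes tested in that way. With the mapped share as a covariate 8, 15 and 5 passed, beside 2418, 6176 and 2122 of all 11432 genes. HES6, a relative of HES1 that opposes it and is known from muscle and nerve precursors, stood far apart. Its level was 46.7 FPKM ± 3.21 in IMPA and 108 ± 6.71 in IMA (SD, n = 5), and at most 0.0793 FPKM in SPA and 0.0907 in SA, with 2 of the SA libraries listed at 0. HES6 rose on induction in the intramuscular cells (1.19, adjusted p = 6.96e-09), and it differed between the depots by 5.52 at day 0 (adjusted p = 3.71e-16) and by 6.71 at day 3 (adjusted p = 2.98e-19). HES6 passed the filter on low values only through the intramuscular libraries.

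Several other genes of the pathway had low levels. The receptor NOTCH4, of vessels, had means of 0.0983 to 0.158 FPKM, and the ligand DLL4, of vessels too, had means of 0.00676 to 0.0129 FPKM. DLK1, a non-activating relative of the ligands that is also called Pref-1 and marks preadipocytes, reached at most 0.0421 FPKM in an IMPA library, 0.0729 in IMA, 0.269 in SPA and 0.266 in SA. The study reported lipid droplets after induction and a significantly lower Pref-1 mRNA level in both kinds of cells. The DLK1 means here, near the floor, show no fall: 0.0114 FPKM in IMPA, 0.0316 in IMA, 0.145 in SPA and 0.157 in SA. Among other targets, HEY2 stayed at or under 0.124 FPKM and HES5 at or under 0.0622 in every library. NRARP, a target that limits Notch, had a mean of 0.267 FPKM in IMPA, 0.210 in SPA and 0.103 in SA, and in IMA it was listed at 0 in 2 of 5 libraries. HES4 was 0.661 FPKM ± 0.0629 in IMPA and 0.927 ± 0.0766 in IMA, and at most 0.111 FPKM in a subcutaneous library. All of these were under the filter of 1 FPKM and had no test.

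For the Notch genes in the fit other than DLL1, the genes with the most similar profile were sought, with the other Notch genes left out. They were the 2 with the smallest root mean square difference of centred log2(FPKM + 1) over the 20 libraries. These libraries fall into 4 groups and so are not independent points. JAG1 was closest to SPRED1 at 0.080 and EPM2AIP1 at 0.098, against a root mean square of 0.424 for JAG1 itself. NOTCH3 was closest to EPHB4 at 0.105 and PDLIM7 at 0.106 (own value 0.416). The other pairs were SH3D19 and CDH11 for NOTCH1 (0.112 and 0.119), PABPC1 and KLF3 for NOTCH2 (0.1 and 0.107), NLK and EPHA4 for HEY1 (0.119 and 0.121), and LOC102175348 and ARSI for HES1 (0.115 and 0.139). HEYL had the largest differences of these, to FLNC at 0.274 and SIPA1L2 at 0.275. Its own value of 1.09 was the largest of these too, so the differences alone do not rank closeness.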

How the data were processed

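RNA of 20 libraries, 5 per group, was sequenced from strand-specific libraries by the authors. Reads were aligned with HISAT2 2.0.4 to the goat assembly ARS1, and the authors deposited FPKM per transcript from StringTie 1.3.1 and Ballgown (tools also per the submitters' processing notes). Nothing was realigned. The 43766 mRNA transcripts were summed to 20587 symbols, values were used as log2(FPKM + 1), and 11432 genes with a mean of at least 1 FPKM were tested. Each pair of groups was compared in limma 3.58.1 (R 4.3.3, moderated variances with a trend, 10 libraries), and the interaction over 20 libraries. P values were adjusted by Benjamini-Hochberg over all genes tested, and a call is an adjusted p under 0.05. JAG2 and transcript shares were tested by two-sided exact permutation over 252 divisions. Tables and figures used Python 3.11.15. The tests were checked on simulated data.

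The Notch genes, the other pathway genes and the marker lists were chosen with earlier results of these data known. All 9 Notch genes were named. Of the other pathway genes, the 2 higher and 2 lower with the smallest p per comparison were named, and always NOTCH4, DLL4, DLK1, RBPJ, LFNG, NRARP, HES6, HEY2, HES4 and HES5. TLE1 and the markers MYMK, MYH3, ZFP423, FABP4 and LYZ were not analysed here. Markers of immune cells were also listed, and of the 7 measured only CD14 and CD68 had a mean above 1 FPKM in any group. The lncRNA tables held no row with a symbol of these 9 genes and served only in an alternative adjustment. The genes closest in profile to DLL1 are not reported here. No sequences were printed. Alternatives were other pseudocounts, filters and scalings, the most abundant transcript alone, other models, a block for the replicate number, a covariate for the mapped share (from the study's alignment statistics), and libraries left out.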

Additional observations from a re-analysis of the deposited data

Results flagged for a closer look

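Of 36 groups of 5 libraries (9 genes in 4 groups), 2 held a library set apart by Dixon's ratio, whose critical value is 0.71 for 5 values, and chance alone sets apart about 5 in 100 such groups. NOTCH2 in SA had SA3 as its lowest library at 10.9 FPKM, with a ratio of 0.712. DLL1 in IMA had IMA3 as its lowest at 6.93 FPKM, with a ratio of 0.723.

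The change over induction differed between intramuscular and subcutaneous cells, by the interaction term over 20 libraries, for 5 of the 8 Notch genes tested. Of all genes 55.3% passed the same test. The intramuscular minus the subcutaneous change on the log2 scale was -0.63 for NOTCH1, 0.47 for JAG1, 0.54 for DLL1 and 0.46 for HES1. It was -0.39 for NOTCH2, where the adjusted p of 0.0497 lay at the threshold. That call was lost when any of 15 of the 20 libraries was left out. With the mapped share as a covariate only NOTCH1 passed.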

How the results depend on the processing

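Adding each library's mapped share as a covariate lowered all 5 counts. All genes called fell from 6867 to 776 in IMA against IMPA, from 5957 to 3809 in SA against SPA, from 8588 to 2418 in IMPA against SPA, from 8277 to 6176 in IMA against SA and from 6319 to 2122 in the interaction, and Notch genes called to 0, 2, 1, 5 and 1. Some lost calls kept values as large as before, such as NOTCH2 in IMA against IMPA (-1.15, against -0.63) and HEY1 in IMPA against SPA (0.62, against 0.49), and others shrank, such as HEYL there (0.68, against 2.18). The share does not overlap between the groups compared and cannot be told apart from them. It reversed HEYL in IMA against IMPA (0.35), JAG1 there (-0.22), NOTCH2 in IMPA against SPA (0.85), HES1 in IMA against SA (0.025) and, in the interaction, NOTCH3 (0.07) and HEYL (0.24). JAG1 in IMA against IMPA, at 0.002, also reversed when rescaled to the same mRNA sum (-0.027) or in the ordinary linear model with a library-size covariate (-0.057), and lay between -0.031 and 0.066 with 1 library left out. With the most abundant transcript alone, HEYL in SA against SPA (0.024) and NOTCH3 in the interaction (0.35, adjusted p = 0.394) reversed. None of these reversed values passed the threshold in either setting.

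Over all alternatives for the 9 genes, 994 values kept direction and side of the threshold, 60 lost their call, 17 gained one and 16 reversed. HEY1 in SA against SPA was also lost with no filter (adjusted p = 0.0743), in the ordinary linear model (0.0629), with all 4 groups in the fit (0.0571) and without SPA1 and SA5 (0.0973), which lost fewer reads in filtering. With 1 library left out, 6 Notch genes were called in IMA against IMPA, 4 to 6 in SA against SPA, 7 to 8 in IMPA against SPA, 6 to 8 in IMA against SA and 4 to 6 in the interaction. All genes called numbered 6362 to 6878, 5441 to 5872, 8334 to 8536, 7964 to 8187 and 6054 to 6381 in the same order. The groups share replicate numbers. Deviations of same-numbered libraries correlated between -0.242 and 0.122 over the 4 comparisons, so the numbers were not taken as pairs. In IMA against IMPA the correlations lay between 0.042 and 0.121, and 3 of 5 libraries matched their own number best. Pairing in that comparison was not settled by these values. With the replicate number as a block, 6826, 5602, 8530, 8059 and 6304 genes were called in the 5 tests, and no call of a Notch gene changed. The study lists the total and mapped reads of each library, which differ between libraries, but the fragments behind a single value are unknown. Levels under 1 FPKM, as of JAG2 and subcutaneous HEYL, are the least certain.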
